A study of Mus musculus with 12 samples.

Results

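Gene expression was compared between C2C12 cells that received antimiR-206 and were cultured for 48 h (antimiR206, 3 arrays) and C2C12 cells held for 24 h in differentiation medium (Day1, 3 arrays). These are 6 of the 12 arrays of the study, taken by their titles, and all 10653 genes tested were used. C2C12 is a mouse myoblast line, and its differentiation medium is a low-serum medium with horse serum in which the cells leave the cell cycle and fuse into multinucleated myotubes. AntimiR-206 is an inhibitor of the muscle microRNA miR-206. A further group holds cells given a miR-206 mimic and cultured for 24 h (3 arrays). The last holds cells after 48 h in differentiation medium (Day2, 3 arrays). The values of both are given beside the comparison. The labels describe Day1 cells as undifferentiated and antimiR206 cells as beginning to differentiate. Lipofection is recorded for every array, but the labels name no control oligonucleotide and no medium for the treated cells. The inhibitor and the longer culture differ together between the groups, and medium and handling may differ too. The effects of all of these cannot be told apart. The replicates are numbered but not said to be separate cultures, so the p-values measure only the spread between these arrays, which may be technical. In such bulk RNA, fewer cells of a type and less RNA per cell cannot be told apart either.

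MicroRNA-206 is made in skeletal muscle and accumulates as myoblasts differentiate. Like other microRNAs it lowers the output of messenger RNAs that carry a match to its seed, and it shares that seed with miR-1. Its mature sequence is shown because it is what the inhibitor is directed against, with the seed (bases 2 to 8) in capitals (RefSeq, GRCm38.p6, chr1:20679055-20679076, plus strand). The level of the microRNA itself is not analysed here.
mmu-miR-206-3p: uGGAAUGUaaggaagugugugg

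All levels are log2 normalized intensities, and a difference is antimiR206 minus Day1 on that scale unless Day2 is named. Standard errors (SE) are on the log2 scale. Median raw intensity was 54.1 to 58.9 on the antimiR206 arrays and 49.5 to 60.6 on the Day1 arrays, with 17648 to 17912 and 16915 to 17976 probes above background. The first principal component of all 12 arrays (75.2% of the variance) placed antimiR206 at −24.51 to −10.54, Day1 at −36.61 to −34.57 and Day2 at 73.97 to 80.28. On the second (15.15%) the antimiR206 arrays lay at 14.92 to 28.2 and the Day1 arrays at −26.05 to −20.04, with mimic replicates 2 and 3 at 25.44 and 26.17 and mimic replicate 1 at −19.21. AntimiR206 replicate 1 was the antimiR206 array farthest from Day1 on both components. The mimic arrays were kept out of the fit because replicate 1 stands apart from its group along this axis.

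After 48 h with the inhibitor muscle transcripts such as Acta1 and Myog were far below Day2, and other genes differed from Day1. The 7 largest falls were in Trib3, Cox6a2, Chac1, Avil, Lce1g, Cdsn and Maats1, of which Trib3 and Chac1 belong to the ATF4 stress response. The largest rises were in secreted matrix and immune genes (Prelp, Ifi27l2a, Ccl5 and Islr). Of 10653 genes, 1931 (18.1%) were higher and 1671 (15.7%) lower in antimiR206 than Day1 (limma, adjusted p under 0.05), and 297 of the higher and 163 of the lower genes differed by 2-fold or more. Against Day2, 3138 (29.5%) were higher and 2967 (27.9%) lower. The median difference from Day1 over all genes was 0.01, and the median of its absolute value was 0.23, against 0.39 for the difference from Day2. All 3 antimiR206 values lay above all 3 Day1 values for 25.1% of genes and below them for 23.2%.

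The number of calls depended on the scaling of the arrays and on which arrays were in the fit. With median scaling, which brings only the medians of the arrays together, the median difference over all genes became 0.18, 180 genes passed and 78.3% of them were higher in antimiR206, against 53.6% of the calls with quantile normalization. Of 84 genes named below as called, 47 were not called with median scaling, and none changed direction. The 47 included Hmox1, Slc6a9, Atf4, Farsa, Aars, Iars, Hsp90b1, Xbp1, Dnajb9, Col1a1, Isg15, Psmb8, Ifit3, Cxcl12, Ccl9 and Csf1. They also included Actn3, Tnni2, Tnnc2, Mymk, Atp2a1, Cacna2d1, Myod1, Tead4, Cdkn1a, Cdkn1c, Cd9, Cdh15, Cox7a1, Sox9, Id3 and Snai1. The others were Ccnd2, Ccnd1, Kif23, Fstl1, Gja1, Igf1, Igfbp5, Grem1, Inhba, Smad3, Mdm2, Bcl2l11, Ankrd1, Pparg and Lpl. Of the gene lists below, median scaling left 0 rises among insulin-like growth factor, TGF-beta and BMP, fusion, and myogenic inhibitor genes. It left 1 rise in the sarcomere list, 2 in excitation-contraction coupling, 2 in interferon response, 4 in collagens and 6 in proteoglycans. The falls on these lists were then 0, or 1 for the inhibitors. With the mimic arrays in the fit 2413 genes were called in place of 3602. Of the 84 named genes 8 were then not called, namely Cbs, Tnnc2, Mymk, Myod1, Cdkn1a, Id3, Ccnd1 and Igf1. Without antimiR206 replicate 1, 194 genes were at least 2-fold higher in place of 297. With the authors' values 33 of the 84 differences, 25 rises and 8 falls, were over 1.5 times smaller, for example −2.51 for Cox6a2, −1.34 for Avil, 2.50 for Prelp, 1.29 for Serping1 and 0.74 for Oasl2. A second probe of Bcl2l11, Ifit3, Mdm2, Mymk, Pparg and Tead4 was not called.

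**Figure D1:**
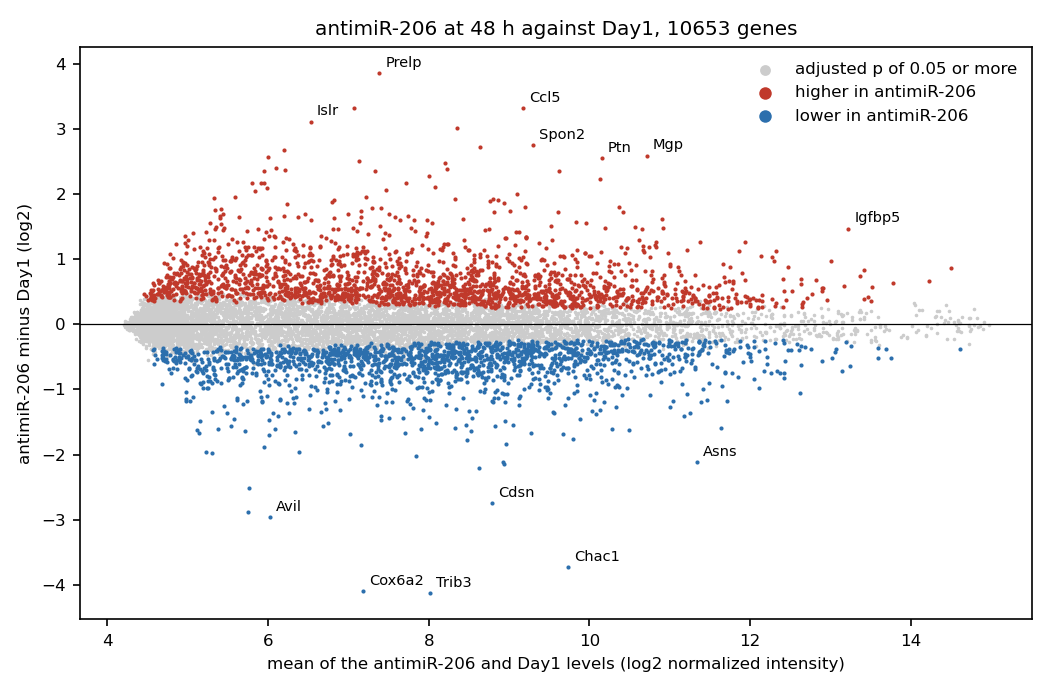
Difference between antimiR206 (48 h) and Day1 (24 h) for 10653 genes, plotted against the mean of both levels, both in log2 normalized intensity. Red points are the 1931 genes called higher and blue points the 1671 called lower, and Trib3 and Cox6a2 lie lowest at −4.13 and −4.09.

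Many transcripts of the ATF4 stress response were lower in antimiR206. When amino acids are short or the endoplasmic reticulum is overloaded, phosphorylation of the initiation factor eIF2alpha raises translation of the transcription factor ATF4, which turns on amino acid synthesis and transport, tRNA charging and the factor CHOP (Ddit3). Of 41 tested genes of an amino acid and unfolded protein stress list, 26 fell and 9 rose (median difference −0.98, against 0.01 over all genes). The members of this and all other lists were chosen with earlier results of these data known. The counts in each list stand against 18.1% of all genes higher and 15.7% lower. The mean level of the list on the antimiR206 arrays was 0.82 to 0.88 below the Day1 mean, and on the mimic arrays 0.40, 0.86 and 0.90 below it.

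Trib3, a pseudokinase gene that ATF4 and CHOP switch on, had levels of 5.91, 6.09 and 5.85 in antimiR206, against 9.87, 10.19 and 10.16 in Day1. It was thus low on every antimiR206 array, 17.5-fold below Day1 (difference −4.13, SE 0.11, limma adjusted p = 1.6e-12). Day2 stood at 9.41, 9.62 and 9.63, near Day1, and the mimic arrays at 8.35, 5.67 and 6.04.

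Chac1 encodes an enzyme that breaks down glutathione. It had levels of 7.76, 7.92 and 7.94 in antimiR206, against 11.48, 11.71 and 11.61 in Day1, with no overlap. The fall was 13.2-fold (difference −3.73, SE 0.09, limma adjusted p = 7.3e-13), and Day2 was at 11.78 ± 0.09 (SD, n = 3). Ddit3 itself was at 8.13, 7.89 and 7.59 in antimiR206, against 9.997, 9.932 and 10.115 in Day1, a 4.43-fold fall (SE 0.12). Asparagine synthetase, Asns, was at 9.69, 10.63 and 10.53, against 12.36, 12.42 and 12.40 in Day1, and antimiR206 replicate 1 was the lowest of all 6 (difference −2.11, SE 0.17). Aldh1l2, a mitochondrial enzyme of folate metabolism, differed by −2.20 (SE 0.13), and the glycine transporter gene Slc6a9 by −2.03 (SE 0.12). Atf4 was at 11.62 ± 0.10, against 12.60 ± 0.16 in Day1 (difference −0.98, SE 0.12, limma adjusted p = 1.8e-05). Further falls on the list, chosen after their values were seen, included the serine and one-carbon enzymes Psat1 (−1.59), Mthfd2 (−1.62), Shmt2 (−1.75) and Phgdh (−1.34), and the cystine transporter gene Slc7a11 (−1.64).

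These transcripts were mostly low against the 48 h Day2 cells as well. Of the 41 list genes 26 were lower than Day2 and 5 higher, where 27.9% and 29.5% of all genes were. Chac1 differed from Day2 by −3.91, Trib3 by −3.60, Slc6a9 by −2.98 and Ddit3 by −2.39. Fgf21, a secreted hormone that ATF4 induces and likewise chosen after its values were seen, differed by −7.07 from Day2 and by −0.79 from Day1.

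Of the list, 9 members rose. They were Cbs, Ddit4, Dnajb9, Xbp1, Edem1, Sdf2l1, Hsp90b1, Cebpb and Pdia4, named here after their values were seen. Hsp90b1 and Pdia4 are chaperones of the endoplasmic reticulum, and Xbp1 is the transcription factor of the IRE1 arm of the unfolded protein response. Their rises were small, at 0.41 (SE 0.10) for Hsp90b1, 0.60 (SE 0.12) for Xbp1 and 0.63 (SE 0.14) for the co-chaperone gene Dnajb9. The transsulfuration enzyme gene Cbs rose by 1.35 (SE 0.15). Hspa5, the main chaperone of the compartment, had a difference of −0.44 and was not called, and was also chosen after its value was seen. With the mimic arrays in the fit, 5 of the 41 genes rose in place of 9.

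Aminoacyl-tRNA synthetases, which load amino acids on their tRNAs, had the largest share of calls of any list with at least 9 tested members. Of 19 tested, 17 fell and 0 rose (median −0.97). The values of those 17 did not overlap between the groups, where 23.2% of all genes lay wholly below Day1. The cysteine enzyme gene Cars was at 4.98, 5.22 and 4.82, against 6.58, 6.96 and 7.12 in Day1 (difference −1.88, SE 0.19), while a second and dimmer Cars probe was not called (−0.34). The alanine enzyme gene Aars was at 8.81, 9.49 and 9.16, against 10.70, 10.54 and 10.61 (difference −1.46, SE 0.15). Every Aars value in antimiR206 was below every Day1 value. Farsa (−1.52, SE 0.22) and Iars (−1.33, SE 0.12), for phenylalanine and isoleucine, followed. Kars and Qars were not called, at −0.13 and 0.09. Against Day2, 12 of the 19 were lower and 0 higher, where 27.9% and 29.5% of all genes were. With median scaling the list medians stayed below 0, at −0.75 for both the stress list and the synthetases, but 8 and 1 of their members passed as lower.

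**Figure D2:**
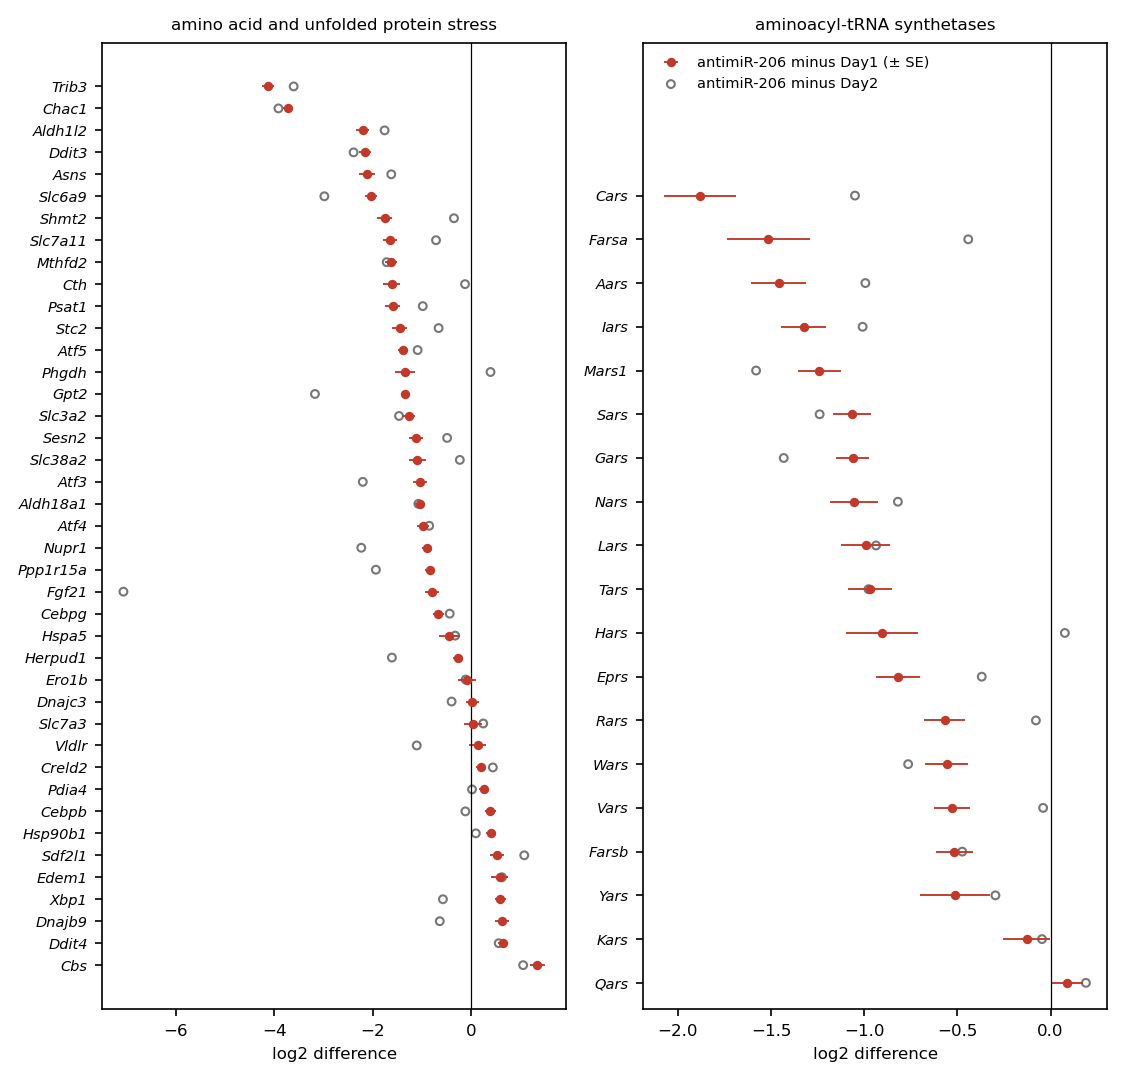
Log2 difference of antimiR206 from Day1 (red, with the limma SE) and from Day2 (open grey circles) for the 41 stress genes on the left and the 19 synthetase genes on the right. Trib3 and Chac1 lie lowest against Day1, and Fgf21 lies at −7.07 against Day2.

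ATF4 binds a short element whose core was searched as TGATGNAA on both strands in the RefSeq promoter windows, from 250 bases before to 50 bases after the start of each gene. Of 10653 genes tested 8600 had a window, and 247 of these (2.87%) held the core. Among the stress genes that fell, 8 of 24 with a window held it, among those that rose 0 of 9 and among those not called 1 of 5. Interferon-response genes that rose held it in 2 of 17 windows. Of the synthetase genes that fell, 5 of 10 with a window held it. Over all genes called lower the share was 3.52%, and over all called higher 3.03%. A match describes these letters and not a bound site. The list members were chosen with these data known, so the list shares are a description and not a test. The windows of 4 members that fell, picked among those with a match, are shown on the strand of the gene (RefSeq, GRCm38.p6). Each match is in capitals. They lie at chr2:152344011-152344310 (Trib3, minus strand), chr2:119350992-119351291 (Chac1, plus strand), chr6:7693160-7693459 (Asns, minus strand) and chr8:111033592-111033891 (Aars, plus strand), and Aars holds 2 matches.
Trib3: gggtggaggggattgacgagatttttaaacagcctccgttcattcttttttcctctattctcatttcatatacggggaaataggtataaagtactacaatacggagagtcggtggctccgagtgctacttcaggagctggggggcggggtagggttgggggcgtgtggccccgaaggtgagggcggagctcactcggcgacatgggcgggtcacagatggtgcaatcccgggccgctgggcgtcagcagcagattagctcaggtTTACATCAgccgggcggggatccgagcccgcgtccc
Chac1: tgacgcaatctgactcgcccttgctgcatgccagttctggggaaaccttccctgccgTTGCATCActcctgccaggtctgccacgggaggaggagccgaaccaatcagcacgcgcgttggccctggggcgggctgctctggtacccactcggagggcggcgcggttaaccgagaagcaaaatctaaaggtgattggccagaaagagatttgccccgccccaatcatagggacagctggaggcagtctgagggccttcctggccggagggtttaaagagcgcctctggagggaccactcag
Asns: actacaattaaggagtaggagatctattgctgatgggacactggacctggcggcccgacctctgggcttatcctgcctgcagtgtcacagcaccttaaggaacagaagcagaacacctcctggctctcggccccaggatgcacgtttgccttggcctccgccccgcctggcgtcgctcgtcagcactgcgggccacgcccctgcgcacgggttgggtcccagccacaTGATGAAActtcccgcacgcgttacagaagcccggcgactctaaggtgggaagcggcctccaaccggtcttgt
Aars: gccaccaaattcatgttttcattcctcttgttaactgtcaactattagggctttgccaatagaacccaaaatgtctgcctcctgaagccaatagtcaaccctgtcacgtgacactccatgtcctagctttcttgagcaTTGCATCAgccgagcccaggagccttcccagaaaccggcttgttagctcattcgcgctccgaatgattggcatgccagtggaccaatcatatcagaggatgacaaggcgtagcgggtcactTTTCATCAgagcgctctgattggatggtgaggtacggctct

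Several of the other large falls were in genes of unrelated roles. Cox6a2, the muscle isoform of a cytochrome oxidase subunit, was at 4.73, 5.35 and 5.32 in antimiR206, against 9.19, 9.18 and 9.31 in Day1. It was low on all 3 antimiR206 arrays (17.1-fold, difference −4.09, SE 0.15, limma adjusted p = 5.4e-11). Day2 was at 12.60 ± 0.21, so antimiR206 was below both Day1 and Day2. Corneodesmosin, Cdsn, an adhesion protein of the outer skin, was at 7.51, 7.46 and 7.27, against 10.09, 10.11 and 10.26 (difference −2.74, SE 0.11), with 8.94 ± 0.21 in Day2. Lce1g, of the cornified envelope, and the cilia gene Maats1 were not above background on any antimiR206 array and were at least 5.84-fold and 5.21-fold lower than Day1. Each bound sets the Day1 mean against the lowest level above background on the antimiR206 arrays, after the background correction and normalization used here. Neither was above background on any Day2 array, where they stood at 4.25 and 4.48. The actin-binding gene Avil, above background on 1 antimiR206 array, differed by −2.97 (SE 0.21). Heme oxygenase, Hmox1, was at 7.71, 7.94 and 7.98, against 9.49, 10.17 and 10.29 in Day1, and at 8.19 ± 0.08 in Day2 (difference from Day1 −2.11, SE 0.16). Its call was among the 47 lost with median scaling (limma adjusted p = 0.0626).

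Secreted matrix genes made up many of the large rises. Fibroblasts and myoblasts lay down collagens together with small leucine-rich proteoglycans, which bind collagen fibrils and growth factors. Prelp, one of these proteoglycans, was at 10.32, 8.73 and 8.89 in antimiR206, against 5.93, 5.05 and 5.38 in Day1. All antimiR206 values were higher, replicate 1 most, and the difference was 14.5-fold (3.86, SE 0.30, limma adjusted p = 3.5e-07). Day2 was higher still, at 10.94, 10.99 and 11.06.

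Osteoglycin, Ogn, was at 11.002, 9.510 and 9.473, against 7.460, 7.196 and 7.163 in Day1 (difference 2.72, SE 0.28). Matrix Gla protein, Mgp, which keeps calcium salts out of soft matrix, was at 12.95, 11.53 and 11.54, against 9.64, 9.19 and 9.42 (difference 2.59, SE 0.26). Replicate 1 was again the highest for both genes. The secreted protein genes Spon2 (2.75, SE 0.19) and Htra3 (2.51, SE 0.22) rose as well, and decorin, Dcn, was at 6.87 ± 0.54, against 4.82 ± 0.26 in Day1 and 10.60 ± 0.13 in Day2. Of 38 tested proteoglycan and matricellular genes 18 rose and 5 fell (median 0.37). The 5 that fell were Ccn1, Ccn2, Tnc, Timp3 and Nid1, named after their values were seen. That count was 3 without antimiR206 replicate 2 or 3 or Day1 replicate 2 or 3.

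In the collagen and fibrillar matrix list 14 of 25 rose and 3 fell (median 0.42). Col6a1, a chain of the microfibril collagen VI, was at 11.66, 11.03 and 11.03, against 9.33, 8.93 and 8.79 (difference 2.23, SE 0.16, limma adjusted p = 1.5e-07), and at 12.52 ± 0.07 in Day2. The fibril collagen genes Col3a1 (1.80, SE 0.21) and Col1a1 (1.33, SE 0.20) rose without reaching Day2, from which they differed by −0.54 and −1.13. On the antimiR206 arrays the list's mean level was 0.79, 0.47 and 0.46 above the Day1 mean, and on the mimic arrays 0.24, 0.65 and 0.61 above it. Replicate 1 of each group stands out, in opposite directions.

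**Figure D3:**
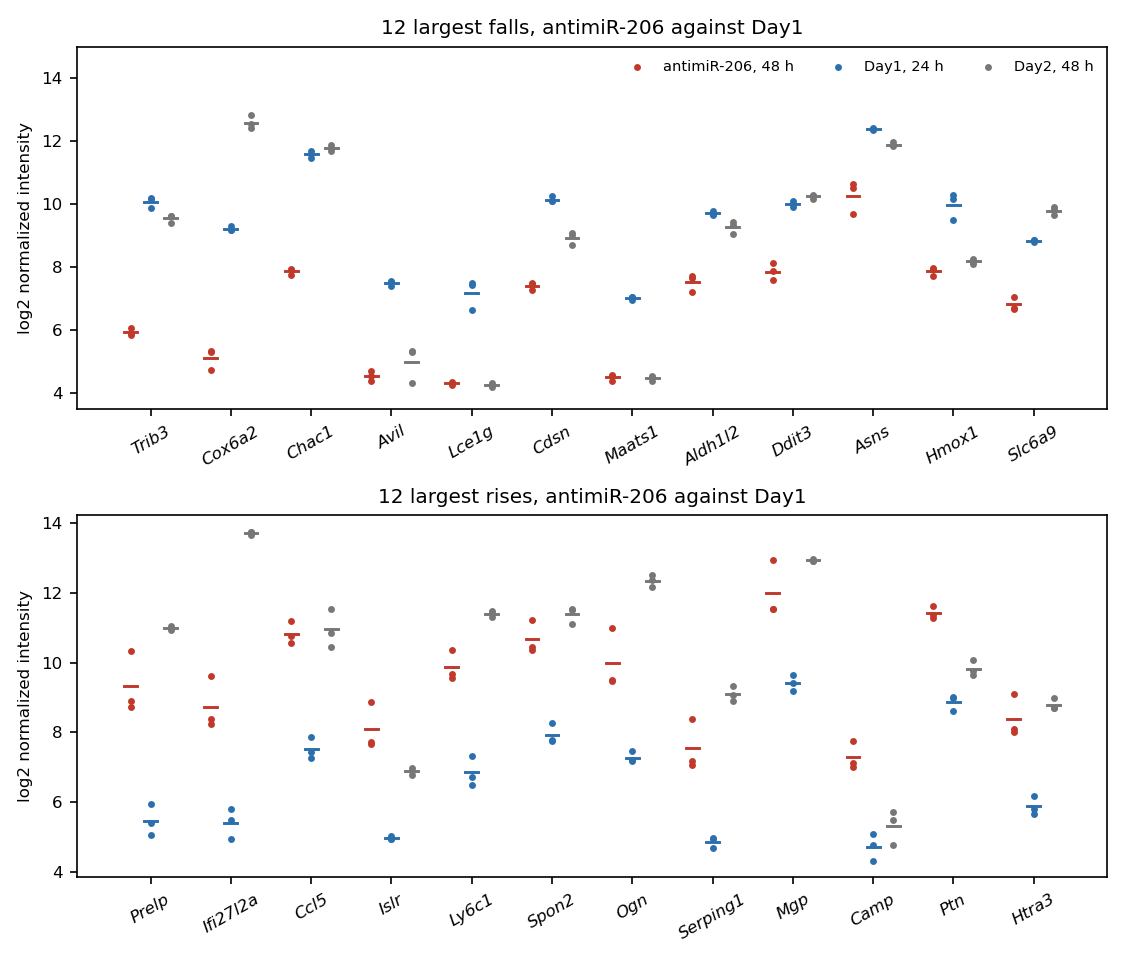
Levels on each array (points) and group means (bars), in log2 normalized intensity, for the 12 largest falls (top) and the 12 largest rises (bottom), with antimiR206 in red, Day1 in blue and Day2 in grey. For Trib3, Chac1 and Ddit3 the Day2 points lie near Day1, while for Prelp, Ogn and Mgp they lie above antimiR206 means.

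Interferon-response genes, which cells switch on when viral or other foreign nucleic acids are sensed, were partly raised. Of 41 tested 19 rose and 1, Irgm1, fell against Day1 (median 0.35). Of the 41, 13 were not above background on all 3 arrays of antimiR206 or of Day1, and over the other 28 the median was 0.56. The detection of those 13 rests on other arrays, so no count against Day2 is given for the list. Ifi27l2a was at 9.60, 8.23 and 8.37 in antimiR206, against 5.81, 4.94 and 5.48 in Day1. That is 10.0-fold above Day1 (difference 3.32, SE 0.27), and still below Day2, at 13.72 ± 0.06. Isg15, a ubiquitin-like protein, was at 7.28, 6.97 and 6.85, against 5.51, 5.44 and 5.16 (difference 1.66, SE 0.14), and at 12.12 ± 0.24 in Day2. The immunoproteasome subunit gene Psmb8 differed by 1.64 (SE 0.14) and Ifit3 by 1.18 (SE 0.16) from Day1, and by −1.03 and −7.10 from Day2. Oasl2, not above background in Day1, was at least 3.06-fold higher, though its 2 other probes were not called. Usp18, Mx2, Oas2 and Irf7 had differences of 0.18, −0.002, −0.03 and 0.12 and were not called (4 genes chosen after their values were seen). The list's mean level was 0.73, 0.40 and 0.44 above the Day1 mean on the antimiR206 arrays, and 0.16, 0.73 and 0.69 above it on the mimic arrays.

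The core of the interferon-stimulated response element (GAAA, any pair of bases, then GAAA) was searched in the same windows on both strands and was found for 307 of 8600 tested genes (3.57%). It was in 7 of 17 windows of list genes that rose and in 6 of 12 windows of list genes that were not called, so it was found in both sets. The Isg15 window holds 3 overlapping matches and is shown because Isg15 had the largest rise among the list genes with a match (chr4:156200769-156201068, minus strand).
Isg15: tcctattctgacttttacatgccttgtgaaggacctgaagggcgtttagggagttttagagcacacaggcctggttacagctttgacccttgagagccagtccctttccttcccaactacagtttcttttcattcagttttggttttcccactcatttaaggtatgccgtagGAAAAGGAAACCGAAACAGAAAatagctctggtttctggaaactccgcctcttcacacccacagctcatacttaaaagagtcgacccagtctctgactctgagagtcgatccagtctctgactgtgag

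Chemokine and complement genes followed in smaller numbers. Ccl5, a chemokine that draws T cells, was at 11.18, 10.76 and 10.56, against 7.86, 7.25 and 7.43 in Day1 (9.98-fold, difference 3.32, SE 0.22, limma adjusted p = 1.2e-07). A difference from Day2 was not detected (10.95 ± 0.55, difference −0.12, limma adjusted p = 0.684), and the mimic arrays were at 9.87, 11.13 and 11.03. Ccl9 (1.24, SE 0.14) and Cxcl12 (1.05, SE 0.21) were higher and Csf1, a macrophage growth factor, lower (−0.71, SE 0.12). In all, 7 of 20 chemokine and inflammatory genes rose and 4 fell, or 6 and 2 with the mimic arrays in the fit. Of 6 complement and acute phase genes 3 rose, among them Serping1, the inhibitor of the first complement component, at 8.38, 7.07 and 7.16, against 4.94, 4.95 and 4.69 (difference 2.68, SE 0.25), and C1qtnf1 (2.40, SE 0.17). The surface protein gene Ly6c1 rose by 3.02 (SE 0.20), but has close paralogs whose transcripts may bind the same probe.

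Some contractile genes rose and none was called lower in the model used here, while many were not detected in either group. In the sarcomere, the repeating unit of actin and myosin filaments, 9 of 32 tested genes (28.1%, against 18.1% of all genes) rose and 0 fell by limma, with 0 lower at an unadjusted p under 0.05. The list median was 0.02, but 13 of the 32 were not above background on all 3 arrays of antimiR206 or of Day1 and passed the filter through other arrays. Over the 19 that were, the median was 0.20. No count against Day2 is given for the list, since members that passed the filter through Day2 had to differ from it. Skeletal alpha-actin, Acta1, was at 6.28, 5.98 and 5.97 in antimiR206, against 5.48, 6.16 and 6.84 in Day1, and at 14.74 ± 0.16 in Day2. Its antimiR206 values fell within the range of Day1 (difference −0.09, SE 0.23, adjusted p = 0.819). Muscle creatine kinase, Ckm, and the regulator Myog were not above background on any array of either group and stood at 10.11 ± 0.16 and 11.42 ± 0.31 in Day2. Myf5, Tnnt2 and Myh3 had no probe that passed the detection filter.

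Slow troponin T, Tnnt1, was at 10.94, 9.64 and 9.71, against 7.96, 8.10 and 8.23 in Day1 (4.001-fold, SE 0.24, limma adjusted p = 1.7e-05), with 14.10 ± 0.20 in Day2. Alpha-actinin-3, Actn3, was at 8.97, 8.56 and 8.38, against 7.27, 7.23 and 7.34 (difference 1.36, SE 0.12). For both genes every antimiR206 value exceeded every Day1 value. Fast troponin I, Tnni2, differed by 1.00 (SE 0.15) and fast troponin C, Tnnc2, by 0.63 (SE 0.20), whose call was lost without Day1 replicate 1 or 2 or antimiR206 replicate 1. The count of 9 was 5 without antimiR206 replicate 1 and 5 with the mimic arrays in the fit. Without antimiR206 replicate 1 or with array weights, 1 sarcomere gene was called lower.

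Genes that couple excitation to contraction or build the neuromuscular junction included 12 of 23 that were higher and 2 that were lower (median 0.47). The 2 became 1 without antimiR206 replicate 1 or 3 or any Day1 replicate. Chrng, the embryonic subunit of the acetylcholine receptor, was at 9.14, 8.15 and 8.23, against 6.42, 6.05 and 5.99 (5.10-fold, SE 0.20), and at 13.78 ± 0.05 in Day2. A second Chrng probe close to background was not called. The calcium pump gene Atp2a1 rose by 1.36 (SE 0.16) and differed by −6.31 from Day2. Cacna2d1, an auxiliary subunit of calcium channels, was at 9.15, 9.17 and 8.95, against 8.29, 7.91 and 7.88 in Day1 and 6.70, 6.57 and 6.62 in Day2, above both, although 1 of its 2 other probes was not called. Of 17 muscle energy genes 4 rose (23.5%, against 18.1% of all genes) and 1, Cox6a2, fell, and 9 of the 17 were not above background on all 3 arrays of antimiR206 or of Day1. The count of rises was 1 without Day1 replicate 2 or with the mimic arrays in the fit, and 2 without antimiR206 replicate 1 or Day1 replicate 3. Cox7a1, the muscle form of another cytochrome oxidase subunit, rose by 0.70 (SE 0.10).

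Regulators of the muscle program were called in both directions. Among 12 tested 2 rose (16.7%) and 3 fell (25%), against 18.1% and 15.7% of all genes. The count of falls was 1 without antimiR206 replicate 2 or 3 or Day1 replicate 2. Myod1, the factor that commits cells to the lineage, was at 10.26, 9.95 and 9.99, against 9.44, 9.23 and 9.46 in Day1 (difference 0.69, SE 0.10, limma adjusted p = 0.00013), and at 9.98 ± 0.08 in Day2. Its call was lost with the mimic arrays in the fit. Tead4, which acts with MyoD at muscle genes, was at 5.54, 5.83 and 5.95, against 6.74, 6.96 and 6.68 (difference −1.02, SE 0.15), and at 9.13 ± 0.28 in Day2. The cell cycle inhibitors diverged, with Cdkn1a (p21) at −0.27 (SE 0.08) and Cdkn1c (p57) at 1.26 (SE 0.18), and both were below Day2. The Cdkn1a call was lost without antimiR206 replicate 2 or 3 or Day1 replicate 2.

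Of 20 adhesion and fusion genes 9 rose and 1 fell (median 0.23). The tetraspanin gene Cd9 was at 12.57, 12.44 and 12.25, against 11.51, 11.23 and 11.15 in Day1 and 11.15 ± 0.06 in Day2 (difference from Day1 1.13, SE 0.11). M-cadherin, Cdh15, rose by 0.87 (SE 0.14). The fusion gene Mymk was at 5.07, 5.16 and 5.44, against 4.83, 4.49 and 4.82, just above background, and at 11.19 ± 0.15 in Day2. Its small difference (0.51, SE 0.14) was not called with the authors' values, with the mimic arrays in the fit, or without antimiR206 replicate 3 or Day1 replicate 2.

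Among 15 inhibitors of myogenic differentiation 7 rose and 1, Trib3, fell (median 0.20), or 3 and 1 with the mimic arrays in the fit. Sox9, a cartilage regulator that restrains muscle genes, was at 11.187, 10.999 and 10.975, against 9.70, 10.05 and 9.87 in Day1 (difference 1.18, SE 0.10, limma adjusted p = 9.5e-07). Its level exceeded Day2 (10.12 ± 0.09) on every array too. Snai1, a repressor that occupies MyoD sites, rose by 0.86 (SE 0.12). The Id proteins block MyoD by binding its partners. Id3 was at 9.73, 9.68 and 9.67, against 9.35, 9.35 and 9.33 (difference 0.36, SE 0.09), and Id1 was not called (0.14, SE 0.13). Both were far above Day2, by 2.70 and 2.06. In the Notch pathway 4 of 10 rose and 1 fell, with the receptor gene Notch3 at 9.68, 9.04 and 9.13, against 7.73, 7.31 and 7.05 (difference 1.92, SE 0.17).

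**Figure D4:**
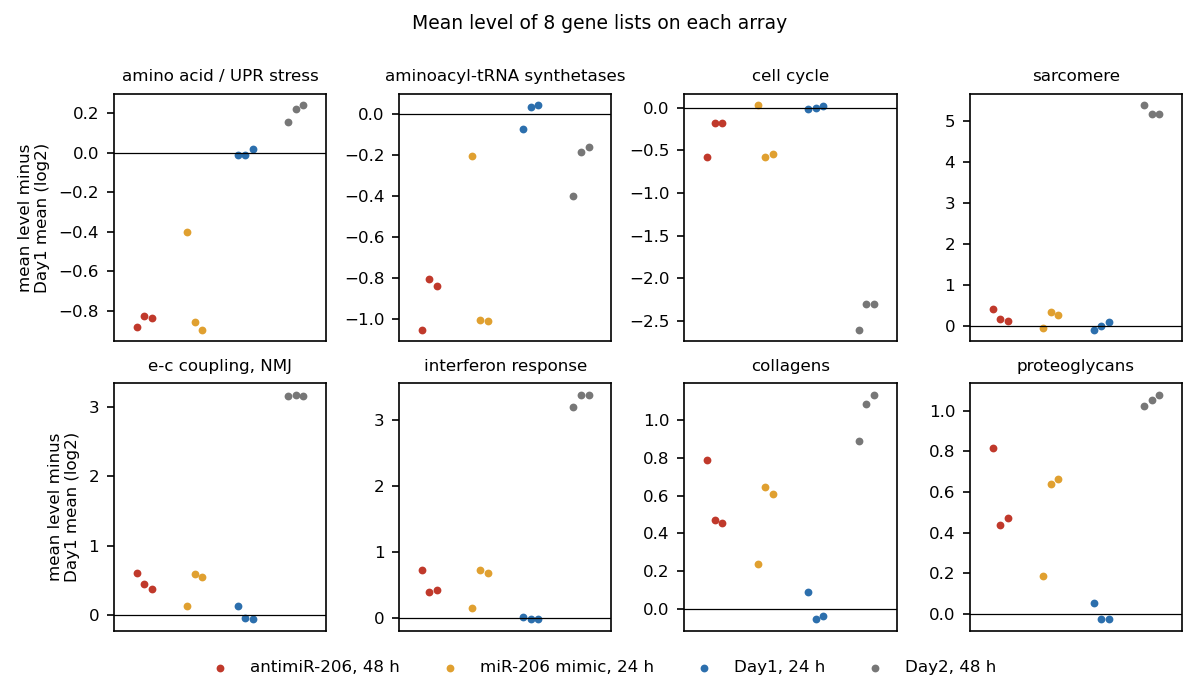
Mean log2 level of 8 gene lists on each of the 12 arrays, relative to the Day1 mean of the list, with antimiR206, the mimic, Day1 and Day2 from left to right in each panel and replicates 1 to 3 from left to right within a group. The sarcomere list lies 0.13 to 0.42 above Day1 on the antimiR206 arrays, and in each list shown mimic replicate 1 lies nearer to Day1 than mimic replicates 2 and 3 do.

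Cell division genes were slightly lower than Day1 and far above Day2. Of 47 tested cell cycle genes 16 fell and 1 rose (median −0.34). Against Day2, 43 were higher and 4 lower (median 2.23), where 29.5% and 27.9% of all genes were. The rises were 2 without antimiR206 replicate 2 or Day2 replicate 1. The count of falls was 9 without antimiR206 replicate 1, 8 to 10 without a Day1 replicate and 4 with the mimic arrays in the fit. With median scaling 0 of the 47 were called lower, and the median was −0.09. Cyclin D2, Ccnd2, was at 7.65, 7.76 and 7.70, against 9.30, 9.48 and 9.24 in Day1 (3.11-fold lower, SE 0.11, limma adjusted p = 9.3e-08), and at 8.33 ± 0.15 in Day2. It was one of the 4 genes also below Day2. Cyclin D1, Ccnd1, differed by −0.72 (SE 0.09) from Day1 and by 1.33 from Day2. Cdc20, which opens anaphase, was at 10.92, 11.52 and 11.46, against 11.61, 11.67 and 11.70, with replicate 1 lowest (difference −0.36, SE 0.17, adjusted p = 0.118), and 4.20 above Day2. It was called lower without Day2 replicate 1. On antimiR206 replicate 1 the list's mean level was 0.58 below the Day1 mean, and on replicates 2 and 3 it was 0.19 and 0.18 below. The rise belonged to Kif23, a kinesin of the cleavage furrow (1.30, SE 0.19), and both of its other probes were called lower (−0.75 and −0.60). The keratin gene Krt14, at 10.28, 10.56 and 10.56 against 10.46, 10.50 and 10.39 in Day1, was not called, and Day2 was at 5.03 ± 0.42.

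Growth factor signalling showed a mixed picture. In the insulin-like growth factor system 6 of 13 rose and 1 fell (2 fell without antimiR206 replicate 1), led by the binding protein gene Igfbp5 at 13.98, 14.01 and 13.87, against 12.92, 12.29 and 12.24 (difference 1.47, SE 0.20). Of 20 genes of TGF-beta and BMP signalling 9 rose and 3 fell. The 3 that fell were secreted ligands or antagonists. They were the BMP antagonist gene Grem1 (−1.67, SE 0.13), the activin subunit gene Inhba (−1.59, SE 0.12) and follistatin, Fst (−1.37). The signal transducer gene Smad3 rose by 1.14 (SE 0.13). Secreted ligands were among the rises too, with the genes Bmp4, Tgfb1, Tgfb2 and Tgfb3, named after their values were seen. Pleiotrophin, Ptn, a heparin-binding growth factor, was at 11.63, 11.38 and 11.28, against 9.02, 8.99 and 8.60 in Day1 and 9.82 ± 0.23 in Day2. It was thus highest in antimiR206 of these 3 groups (difference from Day1 2.56, SE 0.14), and mimic replicates 2 and 3 were at 11.68 and 11.76.

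A few other rises also exceeded both Day1 and Day2. Camp, an antimicrobial peptide, averaged 7.29 ± 0.40, against 4.72 ± 0.39 in Day1 and 5.32 ± 0.50 in Day2 (SD, n = 3 each). Islr, a secreted or membrane protein with leucine-rich repeats, was at 8.88, 7.67 and 7.71, against 4.94, 5.03 and 4.95 in Day1 and 6.88 ± 0.10 in Day2. The chemokine receptor gene Cxcr4 was at 9.96, 9.67 and 9.82, against 8.30, 7.63 and 7.78 in Day1 and 7.71 ± 0.20 in Day2. The serum-induced factor gene Egr2 was at 8.42, 8.25 and 7.90, against 6.37, 6.28 and 6.06 in Day1 and 6.74 ± 0.07 in Day2. For these 4 genes the differences from Day1 were 2.57, 3.11, 1.91 and 1.95, and from Day2 1.97, 1.20, 2.10 and 1.46, each called. On mimic replicate 1 the 4 genes were at 4.94, 4.49, 7.80 and 6.43, at the level of Day1, and on mimic replicate 2 at 7.72, 8.72, 9.90 and 8.29, at the level of antimiR206.

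Published target genes of the miR-1 and miR-206 family went both ways. Of 40 tested, 9 (22.5%) rose and 10 (25%) fell, against 18.1% and 15.7% of all genes, and the median difference was 0.08. Follistatin-like 1, Fstl1, was at 10.79, 10.42 and 10.76, against 9.84, 9.72 and 9.96 (difference 0.82, SE 0.12, limma adjusted p = 0.00014), and at 8.92 ± 0.22 in Day2. Connexin 43, Gja1, was at 11.548, 11.603 and 11.574, against 11.997, 12.002 and 11.978 (difference −0.42, SE 0.08), with 11.60 ± 0.05 in Day2. Tagln2, an actin-binding protein, and the deacetylase gene Hdac4 were not called, at 0.04 (SE 0.09) and 0.32 (SE 0.13). Igf1 rose by 0.73 (SE 0.22), a call lost without antimiR206 replicate 1 or Day1 replicate 1 or 2. Against Day2, 23 of the 40 were higher and 8 lower (median 0.55), where 29.5% and 27.9% of all genes were.

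Ribosomal protein and respiratory chain genes gave few calls, and the counts of several lists below changed with single arrays. Of 33 ribosomal protein genes 1 rose and 1 fell, but 6 rose without Day1 replicate 1, 2 without antimiR206 replicate 1 and 7 with array weights. Of 42 respiratory chain genes 1 rose and 5 fell. There the rises were 3 without Day1 replicate 1, 2 without replicate 1 of antimiR206 or of Day2, and 6 with array weights. The falls were 2 without antimiR206 replicate 1 or 2 or Day1 replicate 3, and 3 without replicate 2 of Day1 or of Day2. Of 18 cholesterol genes 2 rose (11.1%) and 4 fell (22.2%), against 18.1% and 15.7% of all genes. The falls were 1 without antimiR206 replicate 2 or Day1 replicate 3, and 2 without antimiR206 replicate 1 or 3, Day1 replicate 2 or Day2 replicate 2 or 3. Without antimiR206 replicate 3 the rises were 1. Of 17 glycolysis genes 5 rose (29.4%) and 1 fell (5.9%). There 3 rose without antimiR206 replicate 1 or Day1 replicate 2, and 2 fell without antimiR206 replicate 2 or Day1 replicate 1. Of 5 pentose phosphate genes 0 were called by limma, with 1 at an unadjusted p under 0.05. Glutathione and oxidative stress genes had 7 higher (25.9%) and 10 lower (37.0%) of 27, with Hmox1 lowest and Gstt1, a glutathione transferase, highest (1.65, SE 0.22). The falls were 6 without antimiR206 replicate 1 or Day1 replicate 2. Of 21 p53 and apoptosis genes 4 rose and 9 fell, among them the p53 antagonist gene Mdm2 (−1.14, SE 0.10) and the cell death gene Bcl2l11 (1.43, SE 0.12). Immediate early genes had 8 higher and 4 lower of 21. Of 16 smooth muscle and stress fibre genes 1 rose and 1 fell (6.2% each). Synpo, an actin-associated protein, rose (1.86, SE 0.19) and Ankrd1, a target of YAP, fell (−1.62, SE 0.16). The falls on that list were 3 without replicate 1 of antimiR206 or of Day1 and 2 without Day2 replicate 1, and the rises 2 without replicate 1 of Day1 or of Day2.

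Of 9 myoblast markers tested 6 rose (66.7%) and 1, Sdc4, fell (11.1%), against 18.1% and 15.7% of all genes. Few markers of other cell types could be tested. Osteoblast markers had 1 of 4 higher and 0 lower, and 2 of the 3 adipocyte markers rose, Cebpa (1.30, SE 0.21) and Lpl (1.21, SE 0.16), while the adipocyte regulator gene Pparg fell (−0.78, SE 0.14). Fabp4, Adipoq and Plin1 had no probe past the detection filter. By limma 0 of 1 tested endothelial and 0 of 2 tested macrophage markers were called, with 0 and 1 at an unadjusted p under 0.05.

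**Figure D5:**
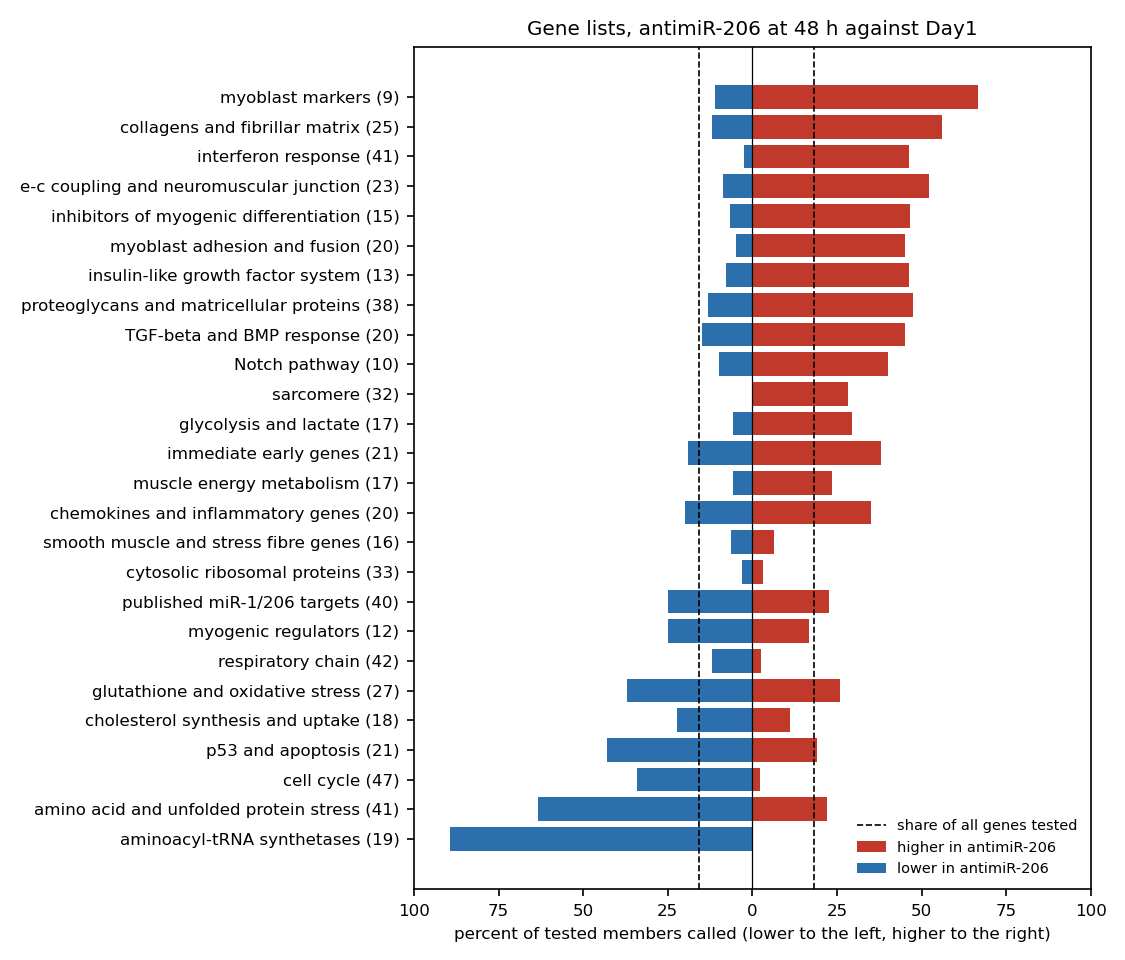
Percent of the tested members of 26 gene lists called lower (blue, to the left) and higher (red, to the right) in antimiR206 than in Day1, with the number tested in brackets and dashed lines at the shares over all genes, 15.7% and 18.1%. Synthetases and stress genes lie at the lower end, with 17 of 19 and 26 of 41 called lower.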

How the data were processed

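RNA of C2C12 cells was hybridised to Illumina bead arrays, 12 in all with 3 per group. The deposited scanner table holds a raw bead intensity and a detection score per probe and array, and the deposited value table holds log2 values that the authors made with lumi, per the submitters' processing notes (version not stated there). Detection p was taken as 1 minus the deposited score. The intensities were background-corrected by normexp with detection p (offset 16), quantile-normalized over 12 arrays and taken to log2 in limma 3.58.1 (R 4.3.3). Probes with detection p under 0.05 on at least 3 arrays were kept (19809 of 45281), and of those with 1 gene symbol (16794) the brightest per gene gave 10653 genes. Of all probes 34885 had 1 symbol, 18 several and 10378 none.

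One linear model held the 9 antimiR206, Day1 and Day2 arrays, with empirical Bayes moderation and an intensity trend, two-sided tests and Benjamini-Hochberg adjustment over all genes at 0.05. No covariate was used. The number of arrays, with 6 residual degrees of freedom, limits the precision. Named genes were the 12 largest rises and 12 largest falls without overlap between the groups, up to 4 called members of each list and a set of always-named genes, and exceptions are marked in the text. The members and lists were chosen with earlier results of these data known. On simulated data, 100 of 100 genes changed by 2 on the log2 scale and 91 of 100 changed by 1 were recovered, with 4 calls among 10453 unchanged genes. The simulated noise was independent for each gene and array, with no scaling difference between arrays. It therefore checks only the model step and not calls that depend on the scaling. Same-numbered arrays did not deviate together (correlations 0.0855, −0.0349 and 0.0419), so the numbers were not used as pairs. Gene names and sequences are from RefSeq (GRCm38.p6). The alternatives tried were other arrays in the fit, a replicate block, other normalization, background correction, filters, probes, array weights, no intensity trend, the authors' values and leaving out each antimiR206 and Day1 array; leaving out each Day2 array was added after seeing the data.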

Additional observations from a re-analysis of the deposited data

How the results depend on the processing

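Against 3602 genes called (1931 higher, 1671 lower, 297 and 163 at least 2-fold higher and lower), median scaling gave 180 (141 higher, 39 lower, 113 and 32 at least 2-fold), and 1608 against Day2 in place of 6105. With all kept probes, of which 19809 were tested, the counts were 5878 (2984 higher, 2894 lower, 466 and 319 at least 2-fold) and 10506 against Day2; more features were tested there. With all 12 arrays in the fit, the mimic arrays included, 2413 genes were called, 1371 higher and 1042 lower. Without background correction 131 and 81 were at least 2-fold higher and lower, and with the authors' values 103 and 63. Leaving out each of the 9 arrays in turn, the Day2 arrays being added after seeing the data, gave 2742 to 4063 genes called, 1493 to 2151 higher, 1246 to 1912 lower, 194 to 358 at least 2-fold higher, 126 to 191 at least 2-fold lower, and 5452 to 6103 against Day2. The replicate block gave 3617 calls (6100 against Day2) and ended none of 84 named calls. The cause of these changes was not tested. No called gene among the 84 changed direction. Without single arrays, Acta1 spanned −0.4267 to 0.25, Ckm −0.0221 to 0.0381, Tagln2 −0.017 to 0.0968 and Krt14 −0.0355 to 0.1085. Directions turned for these 4 genes that were not called. Acta1 was at 0.19 with median scaling and 0.25 without Day1 replicate 3. Ckm was at −0.0048 with median scaling, −0.0147 with array weights and −0.0221 without antimiR206 replicate 1. Tagln2 was at −0.016 without antimiR206 replicate 2 and −0.017 without Day1 replicate 2. Krt14 was at −0.0355, −0.0316 and −0.015 without antimiR206 replicate 2, antimiR206 replicate 3 and Day1 replicate 3. List medians of the cholesterol, glutathione, p53, ribosomal, pentose phosphate and smooth muscle lists were above 0 with median scaling. Probes near background give only a bound on a fold.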
